A study of Mus musculus with 10 samples.

Results

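The Cyp2a and Cyp2b genes encode cytochrome P450 enzymes of the endoplasmic reticulum. The 7 genes described here (Cyp2a4, Cyp2a5, Cyp2a12, Cyp2a22, Cyp2b9, Cyp2b10 and Cyp2b13) were taken by symbol from a table of 47702 genes. All were found, and 6 averaged 0.5 FPKM or more and were tested among 12247 genes. FPKM is the number of fragments scaled to transcript length and to the mapped fragments of the library, so levels can be set side by side between genes. Livers came from female mice with a whole-body Etnppl knockout (KO, 5 libraries) and from wild-type females (WT, 5 libraries), all on chow for 20 weeks. The sources used here give neither the age and strain of the animals nor the deleted exons, and do not say whether a library was 1 animal or a pool. The p-values therefore reflect spread among the deposited libraries, which may be technical.

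As background, these P450s oxidise drugs, steroids and other small molecules, using electrons from P450 reductase. Several are expressed by sex in mouse liver. Near-continuous growth hormone, the female pattern, sustains genes such as Cyp2a4, Cyp2b9 and Cyp2b13, and pulses of the hormone, which act through STAT5b, repress them in males. Cyp2b10 is the classic target of the nuclear receptor CAR, which responds to phenobarbital. Cyp2a5 is the mouse coumarin hydroxylase and answers to liver stress, NRF2 and the aryl hydrocarbon receptor.

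All members lie in 1 gene cluster on chromosome 7 (mm10). From the low end they run Cyp2b10 (ENSMUSG00000030483, chr7:25897620-25926624), Cyp2b13 (ENSMUSG00000040583, chr7:26061497-26096197), Cyp2b9 (ENSMUSG00000040660, chr7:26173411-26210661) and Cyp2a4 (ENSMUSG00000074254, chr7:26307169-26315088). Then follow Cyp2a5 (ENSMUSG00000005547, chr7:26835305-26843548), Cyp2a22 (ENSMUSG00000091867, chr7:26931631-26939384) and Cyp2a12 (ENSMUSG00000060407, chr7:27029081-27037375). Cyp2a22 is on the minus strand and the others are on the plus strand. The family holds near-copies that short reads can confuse. The coding sequences of Cyp2a4 and Cyp2a5 were 98.4% identical (23 substitutions in 1482 bases), those of Cyp2a12 and Cyp2a22 97.0%, and those of Cyp2b9 and Cyp2b13 92.7%, in the GENCODE M21 transcripts.

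The stretch of 90 coding bases with the most differences between Cyp2a4 and Cyp2a5 shows how little separates a read of one gene from a read of the other. Capitals mark the bases that differ, and the stretch runs from base 580 to base 669, counted from the A of the start codon.
Cyp2a4: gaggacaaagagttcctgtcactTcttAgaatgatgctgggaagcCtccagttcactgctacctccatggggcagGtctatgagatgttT
Cyp2a5: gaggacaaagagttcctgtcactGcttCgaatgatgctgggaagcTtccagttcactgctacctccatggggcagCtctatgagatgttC
There were 5 differences in this stretch, among them C625T (Cyp2a4 base first). The exchange of a few residues is known to switch these enzymes between steroid and coumarin hydroxylation. Of the 50-base words in the Cyp2a4 transcript, 38.0% also occurred in a transcript of another gene, nearly always Cyp2a5. At 100 bases the share was 11.2%. For Cyp2b9 the shares were 11.2% at 50 and 1.2% at 100 bases, and for Cyp2b13 27.3% and 9.3%. The gene that shared most words with Cyp2b13 was the pseudogene Gm45225, which averaged 0.119 FPKM over all libraries. The sources used here do not give the read length, so a 50- or 100-base word stands only for a possible read.

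The promoters of both near-copies are shown because the copies were nearly identical there while their levels were not. The 300-base windows are RefSeq promoters (GRCm38.p6, the assembly of mm10, plus strand), from 250 bases before the transcription start to 50 after it, and capitals mark bases that differ within a pair. All 7 members had such a window.
Cyp2a4 (chr7:26306942-26307241): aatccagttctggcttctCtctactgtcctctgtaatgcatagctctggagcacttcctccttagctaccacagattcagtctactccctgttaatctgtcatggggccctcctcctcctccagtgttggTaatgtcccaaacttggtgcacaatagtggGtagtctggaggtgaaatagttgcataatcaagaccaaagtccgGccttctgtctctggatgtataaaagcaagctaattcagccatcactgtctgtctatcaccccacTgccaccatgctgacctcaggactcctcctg
Cyp2a5 (chr7:26835089-26835388): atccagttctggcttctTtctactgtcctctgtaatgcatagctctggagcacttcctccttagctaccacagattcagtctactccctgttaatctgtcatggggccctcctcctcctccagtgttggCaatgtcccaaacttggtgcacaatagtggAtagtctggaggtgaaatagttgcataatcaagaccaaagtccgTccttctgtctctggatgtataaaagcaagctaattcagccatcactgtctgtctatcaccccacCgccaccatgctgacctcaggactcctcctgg
Cyp2b9 (chr7:26173159-26173458): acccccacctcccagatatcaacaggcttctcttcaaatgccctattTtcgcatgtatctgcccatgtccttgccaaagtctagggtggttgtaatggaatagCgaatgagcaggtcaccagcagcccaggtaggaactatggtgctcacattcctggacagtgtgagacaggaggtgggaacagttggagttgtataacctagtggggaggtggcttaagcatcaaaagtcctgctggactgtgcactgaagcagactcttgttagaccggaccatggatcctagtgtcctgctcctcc
Cyp2b13 (chr7:26061245-26061544): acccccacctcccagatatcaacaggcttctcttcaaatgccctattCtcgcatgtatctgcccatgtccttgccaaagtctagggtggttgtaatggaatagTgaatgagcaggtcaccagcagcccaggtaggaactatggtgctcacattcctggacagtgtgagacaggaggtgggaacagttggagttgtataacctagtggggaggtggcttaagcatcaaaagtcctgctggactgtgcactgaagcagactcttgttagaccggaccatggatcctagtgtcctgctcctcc
The Cyp2a4 and Cyp2a5 windows differed at 5 of 299 aligned bases, and the Cyp2b9 and Cyp2b13 windows at 2 of 300. The Cyp2b10 window, by contrast, was 74.6% identical to each of Cyp2b9 and Cyp2b13.

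Letters of known liver motifs were then sought on both strands of these windows. The HNF4 core CAAAGTCC stood 55 bases before the start in Cyp2a4 and 56 in Cyp2a5, and in no other member. It was present in 1.42% of the 32851 promoter windows of the mouse table. TTGCATAA, a site form of C/EBP and PAR bZIP factors, was present in Cyp2a4, Cyp2a5 and Cyp2b10, against 0.743% of all windows. The TATA box TATAAA was present in all 4 Cyp2a members and in no Cyp2b member, against 13.6% of all windows. The STAT5 letters TTCNNNGAA were in none of the 7 windows, against 8.3% of all. None of these motifs overlapped a base that differed between Cyp2a4 and Cyp2a5. The difference G205T, numbered in the Cyp2a4 window, lay just past the HNF4 core. The letters searched do not show whether a longer site would be the same in both copies.

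The libraries were alike in rank order, and their depth lay in a narrow range but was lower in most KO libraries. Their relative depth, from the steps of the lowest FPKM values, ranged from 0.901 to 1.068 in KO and from 0.999 to 1.108 in WT. KO 1, KO 3, KO 4 and KO 5 (0.902, 0.990, 0.901 and 0.908) were below every WT library. Spearman correlations across genes were 0.977 to 0.988 within and 0.974 to 0.983 between genotypes. Etnppl was at 17.72 to 26.43 FPKM in KO and at 43.32 to 108.39 FPKM in WT, so it was lower in every KO library but not absent. Hepatocyte markers were abundant, with 61902 to 67512 FPKM summed over 7 genes in KO and 57442 to 62691 in WT. Alb alone averaged 43771 FPKM in KO and 41138 in WT, so the sum mostly describes Alb. Limma called 1 of these 7 higher (Cps1), beside 3.98% called higher over all genes tested. Of 12 Kupffer cell markers, 5 fell, beside 4.56% called lower by limma over all genes tested. The sum of all 12 was 207 to 299 FPKM in KO and 298 to 340 in WT, with no marker at 0. Of 8 stellate cell markers 1 fell (Reln), of 5 tested cholangiocyte markers 1 fell (Sox9), and none of 10 endothelial and 7 tested lymphocyte and neutrophil markers was called by limma. The part of these other cells in the results was not tested, and fewer cells of a type cannot be told apart from less RNA per cell in bulk liver.

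Cyp2a4 was the member that changed most, and the only tested one of 6 that passed the test. It encodes a female-biased steroid hydroxylase. Its level was 27.96, 23.29, 36.68, 12.75 and 18.47 FPKM in KO 1 to 5, against 184.05, 98.87, 76.53, 161.60 and 132.37 FPKM in WT 1 to 5. Every KO library was below every WT library, and the lowest WT library was WT 3. The mean was 23.83 ± 9.14 FPKM in KO and 130.7 ± 44.0 FPKM in WT (SD, n = 5 each). The log2 difference was -2.45 (SE 0.30, 95% interval -3.12 to -1.77, limma adjusted p = 0.0020), a 5.45-fold lower level in KO. An exact permutation of the 10 libraries (two-sided) gave p = 0.00794, its lowest possible value. Among all genes tested, limma called 8.54%, with 3.98% higher and 4.56% lower in KO. The genotypes did not overlap in 8.87% of all genes tested, 4.78% lower and 4.08% higher in KO.

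Cyp2a5 did not pass. Its level was 87.97, 92.07, 84.59, 95.25 and 70.17 FPKM in KO 1 to 5, against 98.37, 96.60, 155.89, 64.73 and 58.99 FPKM in WT 1 to 5. All KO values lay inside the range of the WT values, and WT 3 was the highest of all libraries. Its log2 difference of -0.06 had a 95% interval of -0.57 to 0.45 (SE 0.23, limma adjusted p = 0.90). Its sign turned without WT 3 (0.14) and without KO 5 (0.01). The log2 difference of Cyp2a4 lay outside this interval.

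**Figure D1:**
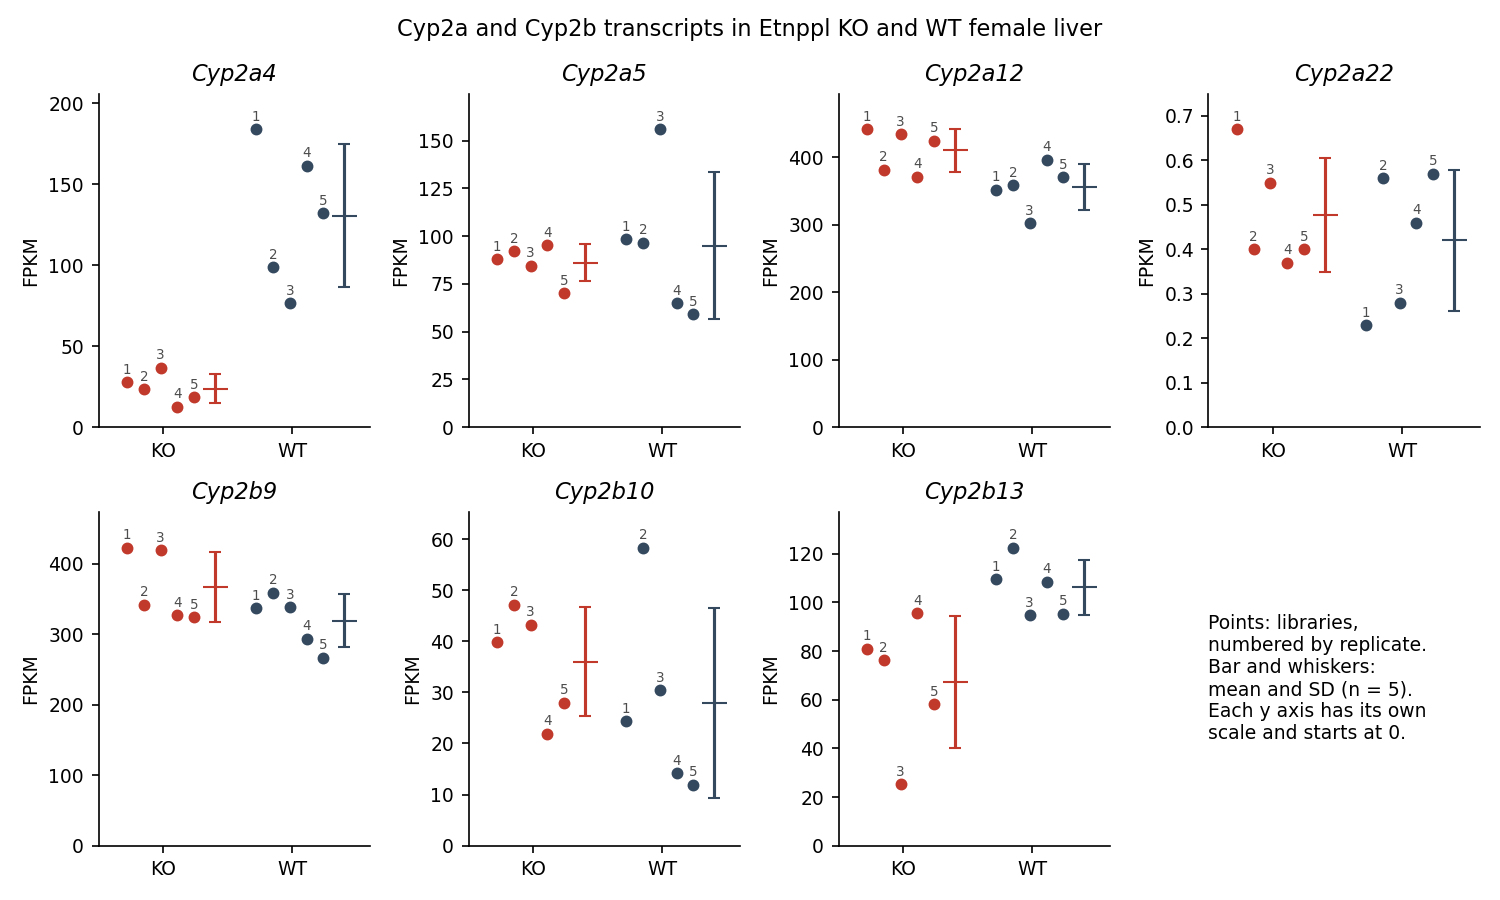
FPKM (y axis, linear, each panel with its own scale from 0) of the 7 members in KO (left) and WT (right) livers, 1 numbered point per library, with mean and SD beside the points (n = 5 each). Cyp2a4 separates the genotypes, with 12.75 to 36.68 FPKM in KO and 76.53 to 184.05 in WT, while the ranges of the other 6 genes overlap.

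The difference between both near-copies was itself tested as the per-library ratio of Cyp2a4 to Cyp2a5, in which scaling between libraries cancels. The ratio was 0.318, 0.253, 0.434, 0.134 and 0.263 in KO 1 to 5, against 1.87, 1.02, 0.491, 2.50 and 2.24 in WT 1 to 5. Cyp2a4 was thus the lower copy in every KO library, and in WT only in WT 3, the library nearest to the KO range. The log2 ratio was lower in KO by a difference of -2.39 (SE 0.51, exact permutation p = 0.00794, adjusted p = 0.0397 over 5 pairs of members compared).

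The summed level of a near-identical pair depends little on how reads were divided between the copies. The sum of Cyp2a4 and Cyp2a5 was 115.93, 115.36, 121.27, 108.00 and 88.64 FPKM in KO 1 to 5, against 282.42, 195.47, 232.42, 226.33 and 191.36 FPKM in WT 1 to 5. The genotypes did not overlap in the sum either, and WT 3 stood within the WT range. With both rows summed before the fit across all genes, the log2 difference was -1.03 (limma adjusted p = 0.000704). Cyp2a4 made up 21.4 ± 6.70% of the sum in KO and 57.9 ± 16.1% in WT (SD, n = 5 each).

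**Figure D2:**
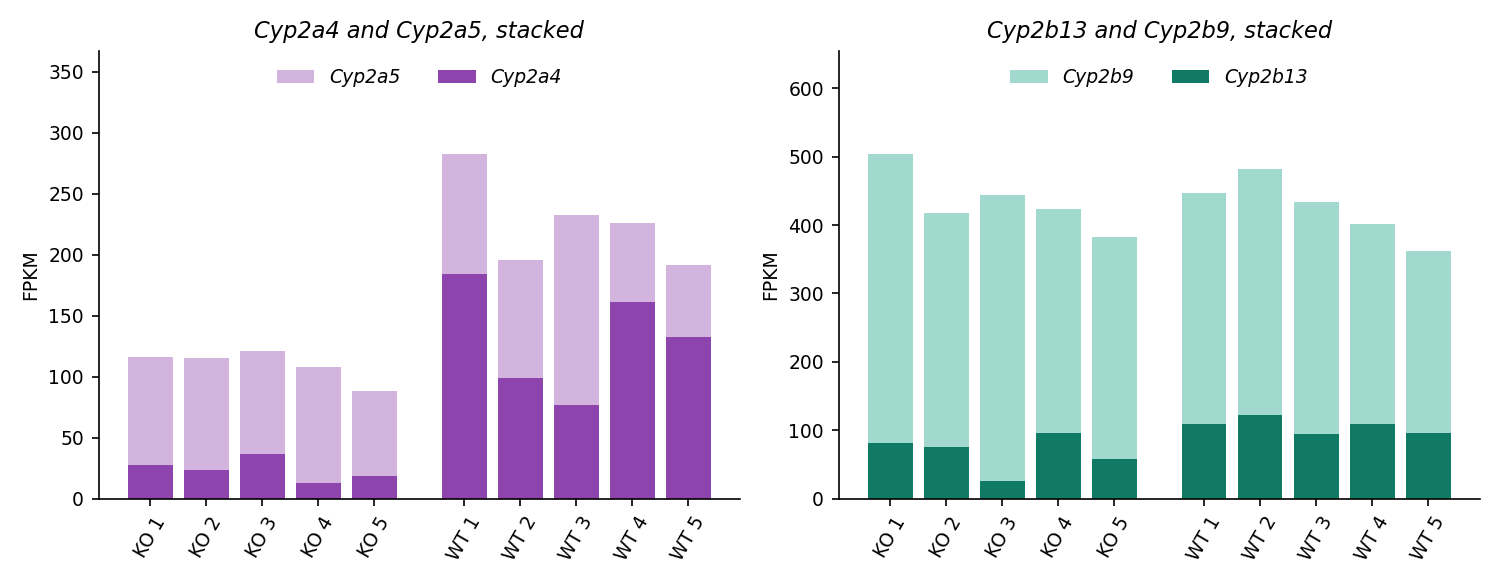
Stacked FPKM (y axis from 0) of Cyp2a4 and Cyp2a5 (left panel) and of Cyp2b13 and Cyp2b9 (right panel) in each KO and WT library. The Cyp2a4 and Cyp2a5 stack is 88.64 to 121.27 FPKM high in KO and 191.36 to 282.42 in WT; the Cyp2b stack is 382.75 to 503.70 FPKM in KO and 362.05 to 481.50 in WT.

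An antisense gene, Gm42375 (ENSMUSG00000108431, chr7:26304421-26307286), overlaps the first bases of Cyp2a4. It was looked at because of that overlap. It was listed at 0.10, 0.08, 0, 0.19 and 0 FPKM in KO 1 to 5, against 1.31, 0.79, 0.55, 0.63 and 0.62 FPKM in WT 1 to 5. Its mean of 0.427 FPKM was below the filter, so it was not tested. Without a stated strand setting, reads in the short stretch shared with Cyp2a4 cannot be told apart from those of Cyp2a4. The FPKM values do not show how many of the Gm42375 reads lay there. Other genes overlapped members too. Rnf170-ps, a pseudogene inside Cyp2b13, averaged 0.378 FPKM in KO and 0.436 in WT and was also below the filter. Cyp2a21-ps, a pseudogene on the strand opposite Cyp2a22, was listed at 0 in every library.

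Cyp2a12 and Cyp2a22, the other near-identical Cyp2a pair, were not called. Cyp2a12, known as the mouse enzyme that turns secondary bile acids back to primary ones, was the most abundant member in both genotypes. Its level was 441.52, 381.53, 434.23, 371.30 and 424.41 FPKM in KO 1 to 5, against 352.19, 358.96, 302.40, 396.61 and 370.11 FPKM in WT 1 to 5. KO 2 and KO 4 lay inside the WT range and the other KO libraries above it. The log2 difference was 0.21 (SE 0.08, 95% interval 0.04 to 0.38, limma adjusted p = 0.12). Cyp2a22 was near the limit of detection, at 0.37 to 0.67 FPKM in KO and 0.23 to 0.57 FPKM in WT. It did not pass the filter on low values, and 25.7% of its 50-base words also occurred in Cyp2a12, the far more abundant copy. The log2 ratio of Cyp2a12 to Cyp2a22 differed by 0.11 (SE 0.11, exact permutation p = 0.341, adjusted p = 0.381). The 0.5 FPKM added before the log was about as large as Cyp2a22 itself, so it weighs on this ratio. With other added values or the replicate block, the difference was 0.023 to 0.146 (exact permutation adjusted p 0.129 to 0.913).

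Cyp2b9 and Cyp2b13, both female-biased steroid hydroxylases, did not pass the test singly, but the ratio between them changed. Cyp2b13 was at 80.95, 76.12, 25.16, 95.65 and 58.04 FPKM in KO 1 to 5, against 109.44, 122.46, 94.82, 108.47 and 95.42 FPKM in WT 1 to 5. The groups overlapped through KO 4 alone, and KO 3 was the lowest library. The mean was 67.18 ± 27.1 FPKM in KO and 106.1 ± 11.5 FPKM in WT (SD, n = 5 each). The log2 difference of -0.78 (SE 0.30, 95% interval -1.46 to -0.10) had a limma adjusted p of 0.15 and an exact permutation p of 0.0238. Without KO 3 it was -0.46 (limma adjusted p = 0.06).

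Cyp2b9, the second most abundant member, was at 422.75, 341.87, 419.43, 327.26 and 324.71 FPKM in KO 1 to 5, against 336.72, 359.04, 338.41, 293.71 and 266.63 FPKM in WT 1 to 5. KO 1 and KO 3 were above all WT libraries, and the other KO libraries lay inside the WT range. The log2 difference was 0.20 (SE 0.10, 95% interval -0.02 to 0.43, limma adjusted p = 0.25). 

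The ratio of Cyp2b9 to Cyp2b13 was 5.22, 4.49, 16.7, 3.42 and 5.59 in KO 1 to 5, against 3.08, 2.93, 3.57, 2.71 and 2.79 in WT 1 to 5. Only KO 4 lay inside the WT range, below WT 3, and KO 3 was far above. The log2 ratio rose by 0.98 in KO (SE 0.39, exact permutation p = 0.0159, adjusted p = 0.0397). The call was lost without WT 1, WT 2, WT 4 or WT 5 (adjusted p up to 0.0794), and without KO 3 the difference was 0.614. The sum of both copies was 434 ± 44.7 FPKM in KO and 425 ± 45.3 FPKM in WT (SD, n = 5 each), and its log2 difference in the fit was 0.03 (limma adjusted p = 0.86).

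Cyp2b10, the CAR target, varied more between libraries than between genotypes. It was at 39.89, 47.15, 43.24, 21.94 and 27.96 FPKM in KO 1 to 5, against 24.37, 58.31, 30.47, 14.20 and 11.93 FPKM in WT 1 to 5. All KO libraries lay within the WT range, whose top was WT 2. Its log2 difference of 0.54 had a 95% interval of -0.34 to 1.42 (SE 0.40, limma adjusted p = 0.45). The log2 ratio of Cyp2b13 to Cyp2b10 differed by -1.32 (SE 0.59, exact permutation p = 0.0476, adjusted p = 0.0794) and that of Cyp2b9 to Cyp2b10 by -0.34 (SE 0.37, adjusted p = 0.381, exact permutation). Without KO 4 the first of these passed (adjusted p = 0.0265).

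By level, Cyp2a12 (411 FPKM in KO, 356 in WT) and Cyp2b9 (367 and 319) led in both genotypes. Their ranges overlapped, though Cyp2a12 was above Cyp2b9 in 5 of 5 KO and 3 of 5 WT libraries. Next in KO came Cyp2a5 (86.0 FPKM), Cyp2b13 (67.2), Cyp2b10 (36.0) and Cyp2a4 (23.8), neighbours whose ranges overlapped. In WT the order was Cyp2a4 (131 FPKM), Cyp2b13 (106) and Cyp2a5 (94.9), again overlapping, and then Cyp2b10 (27.9). Cyp2a4 was therefore at rank 6 in KO and at rank 3 in WT. Summed over all 7 members the level was 991 ± 78.7 FPKM in KO and 1035 ± 70.1 FPKM in WT (SD, n = 5 each), a difference smaller than either SD.

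**Figure D3:**
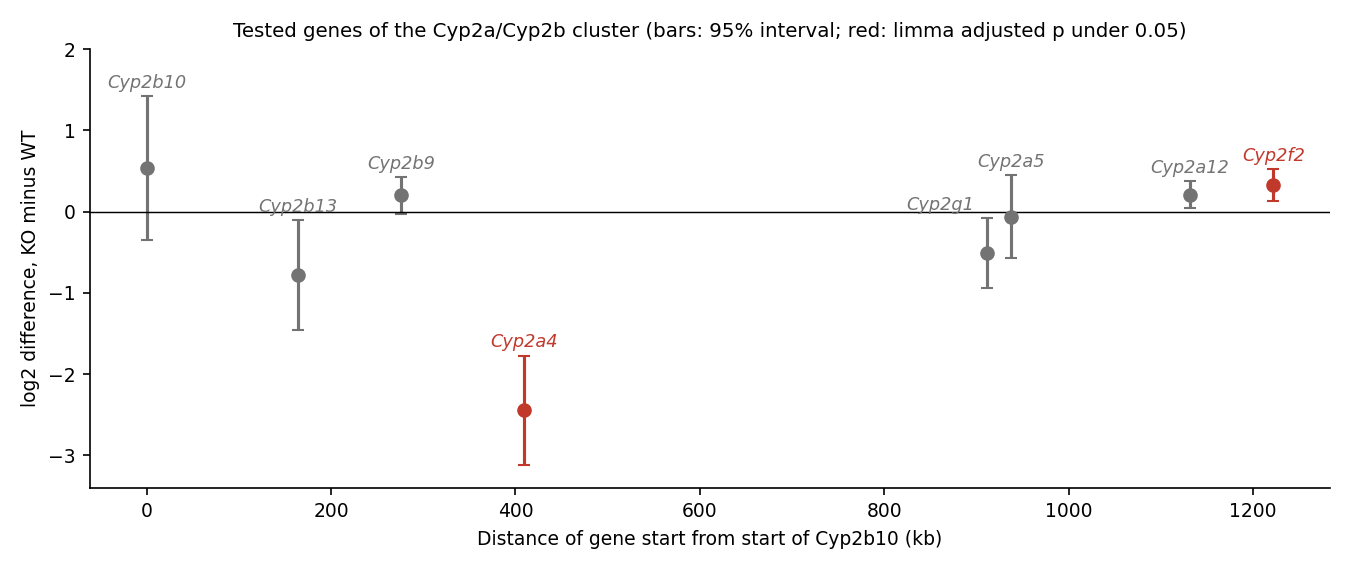
Log2 difference KO minus WT (y axis, points, with 95% intervals as bars) of the 8 tested genes of the cluster against the distance of each gene start from that of Cyp2b10 in kilobases (x axis). Cyp2a4 at -2.45 and Cyp2f2 at 0.33 are called by limma (red), and the genes between and beside them are not.

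Only Cyp2a4 and Cyp2f2 were called in the cluster. From Cyp2s1 to Cyp2t4 the table listed 45 annotated genes, of which 8 were tested: 6 members, Cyp2f2 and Cyp2g1. Over all genes tested, limma called 8.54%. Cyp2f2, a periportal P450 that activates naphthalene, rose to 714.22, 508.85, 579.14, 515.57 and 549.71 FPKM in KO 1 to 5, against 460.75, 492.56, 409.24, 453.81 and 447.58 FPKM in WT 1 to 5. All KO libraries were above all WT libraries. This log2 difference of 0.33 (SE 0.09) passed at a limma adjusted p of 0.042. Leaving out WT 1, WT 3, WT 4, WT 5, KO 3, KO 4 or KO 5 singly ended the call, with an adjusted p of at most 0.083. Cyp2g1, best known from the olfactory mucosa, averaged 0.694 FPKM in KO and 1.17 FPKM in WT (log2 difference -0.51, limma adjusted p = 0.14). Cyp2b19, Cyp2b23 and Cyp2t4 were listed at 0 in every library, and Cyp2s1 averaged 0.22 FPKM in KO and 0.246 in WT.

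Most receptors and targets of CAR and PXR, the receptors behind Cyp2b10 induction, did not pass. Of 31 tested, 2 rose, 2 fell and 27 did not pass (12.9% called by limma, beside 8.54% over all genes tested), with a median log2 difference of -0.07 beside -0.02 over all genes tested. Gstm2, a glutathione transferase, rose (94.8 ± 8.87 FPKM in KO, 55.7 ± 18.1 in WT, log2 difference 0.82), and lies on chromosome 3, 22631 kb from Etnppl. The aldehyde dehydrogenase Aldh1a7 also rose (0.44). Cyp2c37, a P450 of the Cyp2c family, fell (251.6 ± 30.7 FPKM in KO, 413.6 ± 63.7 in WT, log2 difference -0.71), and so did Papss2 (-0.48), which makes the sulfate donor. The call of Gstm2 ended without WT 1, WT 4 or any KO library, and that of Papss2 without any single library except WT 4, WT 5 and KO 3 (limma adjusted p at most 0.064 and 0.078). CAR itself, Nr1i3, named here for its role, was at 194 FPKM in KO and 231 FPKM in WT (log2 difference -0.24, limma adjusted p = 0.15).

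In the growth hormone and STAT5 list, 2 of 26 fell, 24 did not pass and none rose. The share called by limma was 7.69%, near the 8.54% over all genes tested. The median was -0.21, beside -0.02 over all genes tested. Igfals, the growth hormone-induced partner of circulating IGF, was at 27.4 ± 4.09 FPKM in KO and 50.5 ± 11.2 FPKM in WT (log2 difference -0.85), and the receptor Ghr at 101.1 ± 5.94 FPKM in KO and 126.8 ± 17.8 in WT (-0.32). The call of Ghr held only without WT 3 or WT 4 (limma adjusted p otherwise at most 0.099), and ended after upper-quartile scaling (0.053) or quantile normalization (0.063). Cux2, a female-specific repressor of male genes, was at 1.49 ± 0.727 FPKM in KO and 5.10 ± 2.32 FPKM in WT (log2 difference -1.42, limma adjusted p = 0.053), and passed without WT 3 (0.0041). In WT 3 it was at 1.37 FPKM, inside the KO range. Prlr, the prolactin receptor, was at 95.9 ± 12.3 FPKM in KO and 125.1 ± 19.6 FPKM in WT (log2 difference -0.38, limma adjusted p = 0.061), and passed without WT 2 (0.033).

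Among female-biased liver genes other than the members, 8 of 29 fell, 21 did not pass and none rose. That was 27.6% called by limma, beside 8.54% over all genes tested (4.56% lower, 3.98% higher). The median was -0.59, beside -0.02 over all genes tested. Like every gene list used here, this list and the male-biased one were chosen with earlier results of these data known. The shares called in the lists are therefore descriptions and not tests. In the female-biased list, Acot3 (log2 difference -1.43), Atp6v0d2 (-1.0), Cyp17a1 (-0.83) and Abcd2 (-0.74) had the smallest p. Of the 3 members placed in this class as background, Cyp2a4 fell and Cyp2b9 and Cyp2b13 did not pass. Among male-biased genes, 8 of 27 rose, 19 did not pass and none fell (29.6% called, beside 8.54% over all genes tested, median 0.34). The smallest p belonged to Susd4 (log2 difference 1.83), Nudt7 (0.46), Cyp2u1 (1.25) and Cyp4a12b (1.39). Cyp2u1 lies 655 kb from Etnppl on chromosome 3, and DNA that travelled with the knockout allele cannot be told apart there from the loss of Etnppl.

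**Figure D4:**
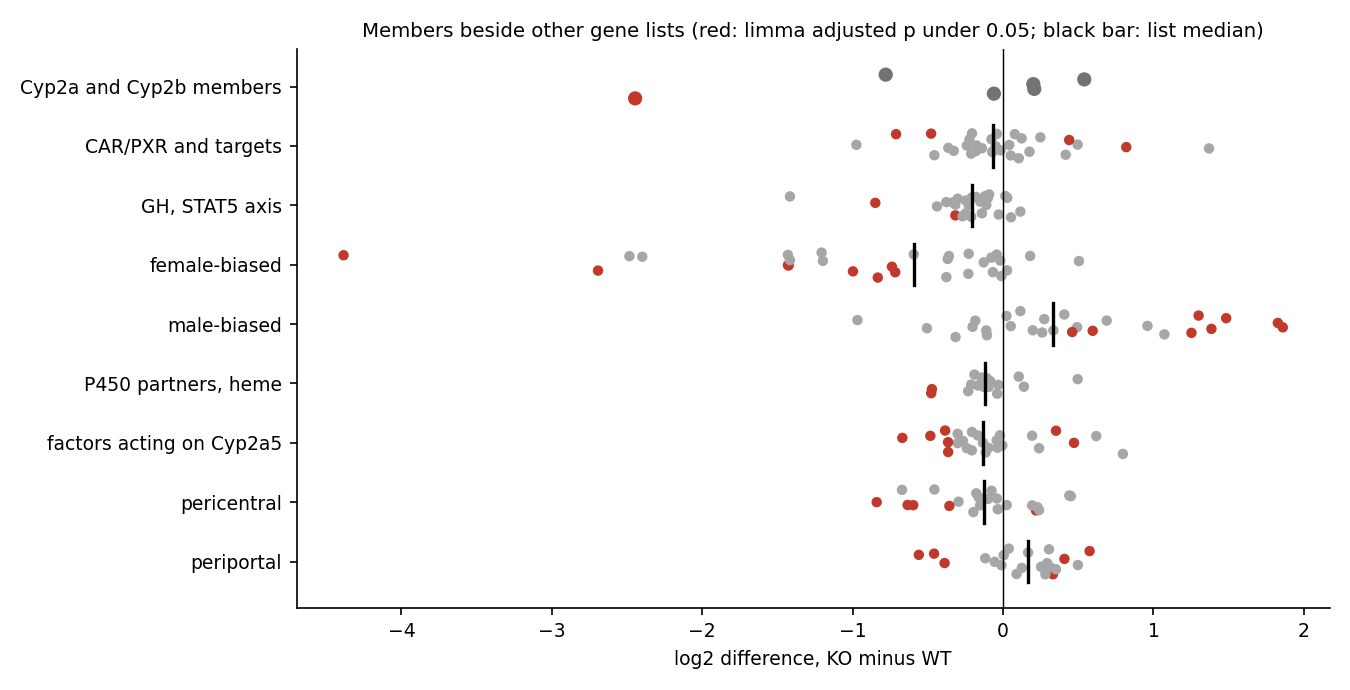
Log2 differences KO minus WT (x axis) of the 6 tested members (top row) and of the tested genes of 8 lists (rows), 1 point per gene, red where limma's adjusted p is under 0.05, with the list median as a black bar. Cyp2a4 lies at -2.45 and the other 5 members between -0.78 and 0.54; the female-biased row reaches further left, to Cyp3a16 at -4.39.

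P450s need electrons and heme. Of 16 tested genes of electron transfer and of heme synthesis and breakdown, 2 fell and 14 did not pass. The share called by limma was 12.5%, beside 8.54% over all genes tested (median -0.12). Neither P450 reductase nor any gene of heme synthesis in the list was called. Cyb5b, a cytochrome b5 of the outer mitochondrial membrane, was at 27.3 ± 2.03 FPKM in KO and 38.2 ± 3.84 in WT (log2 difference -0.48). Blvrb, a reductase of heme breakdown, was at 59.0 ± 1.73 FPKM in KO and 82.2 ± 6.42 in WT (-0.47). Alad, the enzyme that joins aminolevulinate in heme synthesis, was at 57.7 ± 4.29 FPKM in KO and 66.8 ± 3.71 in WT (log2 difference -0.21, limma adjusted p = 0.052), and passed without WT 3 or KO 4. Alas1, the rate-limiting enzyme of heme synthesis, was at 352.2 ± 54.0 FPKM in KO and 254.0 ± 62.1 in WT without passing (log2 difference 0.50, limma adjusted p = 0.11).

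The list of factors reported to act on Cyp2a5 also holds target genes of NRF2 and of the aryl hydrocarbon receptor. Of its 25 tested genes, 2 rose, 5 fell and 18 did not pass (28% called by limma, beside 8.54% over all genes tested, median -0.13). That share is thus not a rate among the factors alone. The called NRF2 targets went both ways, with more lower than higher. Hnrnpa1, whose protein binds Cyp2a5 mRNA, rose (66.9 ± 6.51 FPKM in KO, 48.1 ± 4.41 in WT, log2 difference 0.47). Gclm, an NRF2 target (-0.37), Mafg, a partner of NRF2 (-0.39), and Nfil3, a repressor at PAR bZIP sites (-0.67), fell. Gclm lies on chromosome 3 too, 8350 kb from Etnppl. Both calls ended without WT 5, KO 3, KO 4 or KO 5, that of Mafg also without WT 2 or WT 4 and that of Nfil3 also without WT 1 or WT 3 (limma adjusted p at most 0.061 and 0.065).

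Zonation genes were examined since Cyp2a5 and other P450s are pericentral. Of 22 pericentral genes, 4 fell, 1 rose and 17 did not pass (22.7% called by limma, beside 8.54% over all genes tested, median -0.13). Rgn, an enzyme of the vitamin C pathway, fell most clearly (123.2 ± 10.8 FPKM in KO, 221.4 ± 25.4 in WT, log2 difference -0.84), followed by the Wnt inhibitor Notum (-0.63) and Gulo (-0.36), while Slc1a2 rose (0.22). Of 21 periportal genes, 3 rose, 3 fell and 15 did not pass (28.6% called, beside the same 8.54%, median 0.17). Cps1 (0.58) and Hsd17b13 (0.41) were higher and Ctsc (-0.46) and Pigr (-0.39) lower. The calls of Slc1a2 and Ctsc ended without WT 1, WT 4, WT 5, KO 2, KO 4 or KO 5, that of Slc1a2 also without KO 3 and that of Ctsc also without WT 2 (limma adjusted p at most 0.076 and 0.068).

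With each genotype's mean taken off, the members' variation over the 10 libraries could be set beside that of 11027 other genes that averaged 1 FPKM or more. The likest genes are given as a description, since the highest of so many is high by choice. For Cyp2a4 they were Snupn (Pearson r = 0.95, Spearman rho = 0.94), Hspa4l (0.95 and 0.93) and Adtrp (0.93 and 0.96), and r stayed at 0.88 to 0.91 without the 2 libraries farthest out, WT 3 and KO 4. For Cyp2a5 they were Hibadh (r = 0.97), Car1 (0.96) and Papd4 (0.96), with WT 3 and WT 5 farthest out. Cyp2b10 was likest Hgd (0.97), Kdm5b (0.96) and Aup1 (0.93), and Cyp2b13 likest Gtf2ird1 (0.97), Casc3 (0.96) and Fam151b (0.95). The last 3 rested partly on KO 3 and KO 4, without which r was 0.88, 0.75 and 0.68. Cyp2a12 was likest Psmd14 (0.95), Crp (0.94) and Ruvbl1 (0.94), and Cyp2b9 likest Slc27a5, H2-T23 (0.92 each) and Igbp1 (0.91).

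Within the family the same measure paired Cyp2b9 with Cyp2b10 (r = 0.77, rho = 0.70, r = 0.74 without the 2 libraries farthest out) and set Cyp2a5 against Cyp2a12 (r = -0.79, rho = -0.82, r = -0.70). Cyp2a4 and Cyp2a5 ran against each other only with WT 3 and KO 4 in (r = -0.44, and 0.10 without them). The near-copies Cyp2b9 and Cyp2b13 had r = -0.28 and rho = 0.04, and r = -0.58 without the 2 libraries farthest out. These values share library depth and composition across genes and carry no test.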

How the data were processed

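Poly(A)-selected liver RNA was sequenced as paired ends on a stranded kit, per the labels' protocols. The deposited table holds FPKM values that the authors made, 1 column per library. The submitters' processing notes name STAR, RSEM, R 4.0.2, DESeq, DESeq2 and the build mm10, with no role for each. The sources used here do not give the strand setting, annotation release or filters, and RSEM divides reads among near-identical copies by estimation, so the split within a copy pair is less certain than its sum.

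FPKM are not counts, so limma 3.58.1 (R 4.3.3; eBayes with trend and robust) was fitted on log2(FPKM + 0.5) over genes averaging 0.5 FPKM or more, KO against WT, with Benjamini-Hochberg adjustment over 12247 genes and a threshold of 0.05. Log2 differences are on that scale and understate changes of low genes. Ratios between members used exact two-sided permutation tests (scipy 1.17.1), adjusted over 5 pairs. The fit was tested on simulated data. Coding sequences and word sharing came from GENCODE M21 transcripts, aligned with Biopython 1.88, and promoters from RefSeq (GRCm38.p6). Relative depth came from the steps between low values of 186 genes, where 98.9% of values lay within 0.15 of a whole number of steps. Total read numbers were not given, so no counting intervals are printed. No 2 libraries held identical values.

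The members and the gene lists were chosen with earlier results of these data known, and the lists come from general knowledge of mouse liver. Named genes were all members, the 4 tested genes with the smallest p in each list that is not a marker list, all Cyp2 genes of the cluster and the 3 genes most like each tested member. Nr1i3 and the overlapping genes were named for their role or position. Alternatives changed the pseudocount, filter, scaling, spread estimate, library weights, replicate block and copy summing, and left out each library in turn.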

Additional observations from a re-analysis of the deposited data

Results flagged for a closer look

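No member of the family had a library that stood apart from the others of its genotype by Dixon's criterion. Among the other named genes, the WT 3 library stood apart in Susd4, a male-biased gene, at 5.38 FPKM, where the other WT libraries were at 1.70 to 2.70. In KO 1, Cyp2u1 was at 8.40 FPKM, where the other KO libraries were at 3.44 to 4.17. Pigr, the receptor that carries immunoglobulin A into bile, was at 441.66 FPKM in KO 1, where the other KO libraries were at 358.84 to 376.75. These were 3 of 102 groups of libraries searched, and chance alone flags about 1 in 20, or 5.1.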

How the results depend on the processing

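Cyp2a4 kept its direction and its call under every alternative that left it as its own row (log2 difference -2.57 to -2.42, limma adjusted p 0.0011 to 0.020). It also kept both without each single library (-2.62 to -2.25, limma adjusted p 0.0019 to 0.0075). With no filter on low values, limma called 294 genes higher and 370 lower, and 230 and 321 with the replicate block, against 488 and 558. The split moved to 578 and 500 with median-of-ratios scaling, 554 and 511 with upper-quartile scaling and 612 and 479 with quantile normalization. Leaving out single libraries gave 258 to 454 higher and 316 to 541 lower.

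With near-identical copies summed, the row that replaced Cyp2a4 and Cyp2a5 was at -1.03 (limma adjusted p = 0.000704). The row that replaced Cyp2b9 and Cyp2b13 was at 0.032 (limma adjusted p = 0.86). Each such row holds both copies and describes neither copy alone. Cyp2a5 ranged from -0.21 to 0.14 without single libraries. The log2 ratio of Cyp2b9 to Cyp2b13 ranged from 0.614 to 1.18 and that of Cyp2b13 to Cyp2b10 from -1.64 to -0.924.

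Same-numbered libraries of both genotypes deviated together only weakly (correlations -0.207 to 0.208, and 2 of 5 numbers matched best with themselves). This does not settle whether the numbers pair the libraries, since a shared litter, cage or handling could leave only weak correlations. The main fit treated the libraries as unpaired. With the replicate block and signs permuted within numbers, the ratios of Cyp2a4 to Cyp2a5 (-2.39) and of Cyp2b9 to Cyp2b13 (0.981) had an exact adjusted p of 0.104, in a design whose smallest raw p is 0.0625. With no filter, Cyp2f2, Gstm2, Papss2, Ghr, Mafg, Nfil3, Slc1a2 and Ctsc lost their calls (limma adjusted p 0.052 to 0.083). With the replicate block, Cyp2f2, Ghr, Mafg, Nfil3, Slc1a2 and Cyp17a1 lost theirs (0.0505 to 0.099, the lowest for Cyp17a1) and Prlr gained one (0.033). Total depth is unknown, and Cyp2a22 was too low to be tested.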
